A study of Mus musculus with 8 samples.

Results

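Macrophages sorted from the lungs of control mice were compared at 11 and 2 days after birth, on 4 of the 8 Affymetrix arrays of the series: the 2 arrays of mature alveolar macrophages at day 11 and the 2 arrays of their precursors at day 2. Control mice carried a Pparg gene flanked by loxP sites on both alleles (PPARg fl/fl, C57BL/6 background) and no Cre recombinase. Each array held RNA from cells pooled from the lungs of 2 mice, and the labels call the pools of a group biological replicates. The day 11 cells were live CD45+ cells, high in CD11c and in autofluorescence, positive for Siglec-F and low in CD11b. The day 2 cells were live CD45+ F4/80+ cells high in CD11c. Their gate is given as either intermediate for Siglec-F and CD11b or low for Siglec-F and high for CD11b. How these 2 gates fell on the genotypes was not stated. The gate thus changed with age, and in these bulk samples age and gate cannot be told apart, nor can a smaller share of cells of a type and less RNA per cell. The other 4 arrays came from CD11cCre/PPARg fl/fl knockout mice on the same background at day 11 (gated high in CD11b) and at day 2, 2 arrays each. In them Cre, driven by the CD11c promoter, cuts the loxP-flanked stretch of Pparg out of CD11c-expressing cells. They entered the fit to share 1 estimate of the spread, and their own age change is set beside that of the controls near the end.

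Alveolar macrophages live in the air spaces, where they take up and break down spent surfactant, a film rich in phospholipid and cholesterol. They descend from fetal monocytes that enter the lung before birth and settle in the alveoli during the first week of life under the cytokines GM-CSF and TGF-β. GM-CSF induces PPARγ, a nuclear receptor that binds fatty acids and governs how a cell takes up, stores and burns lipid. Once settled, the cells maintain themselves by local division. The comparison asks what changes between the precursor and the settled cell.

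The values are log2 RMA signals, so a difference of 1 is a 2-fold change of signal. The median over all 28874 probe sets, those without a single gene symbol included, was 5.35 on every array. A signal below it is described here as under the array median, which is not the median of the genes tested. The day 11 arrays correlated with r = 0.9983 across genes, the day 2 arrays with r = 0.9978, and arrays of different age with r from 0.9929 to 0.9937. One array stood apart in sex-linked genes: the X-inactivation transcript Xist had 9.99 and 9.86 at day 11, against 10.44 on replicate 1 and 3.38 on replicate 2 at day 2, while Y-linked Eif2s3y was present on all 4 arrays (8.13 and 8.16 at day 11, 6.92 and 8.75 at day 2). The pools therefore differed in the sexes they held. Neither gene was called with age.

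The change with age was broad in number and small in size for most genes. Of 18782 genes, 996 (5.3%) were called at an adjusted p under 0.05, 528 higher at day 11 (2.81%) and 468 lower (2.49%). With genes under the 40th percentile of mean signal left out, 1089 of 11269 genes were called. Genes of low signal thus lower the share of 5.3%, against which the gene lists below are set. The median size of a called change was 0.52, against 0.10 over all genes. At least 2-fold changes were called for 148 genes, 86 higher and 62 lower, and 99 of these (59 higher, 40 lower) kept the call in every other setting tried. The total was less stable: leaving out a day 11 control array gave 251 (replicate 1) or 346 (replicate 2), and leaving out a day 2 control array gave 233 (replicate 1) or 267 (replicate 2), and 170 of the 996 genes kept their call in every setting. Of the 86 genes that were at least 2-fold higher, 30 had a day 2 mean under the array median. Of the 62 that were at least 2-fold lower, 6 had a day 11 mean under it and 0 a day 2 mean under it.

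**Figure D1:**
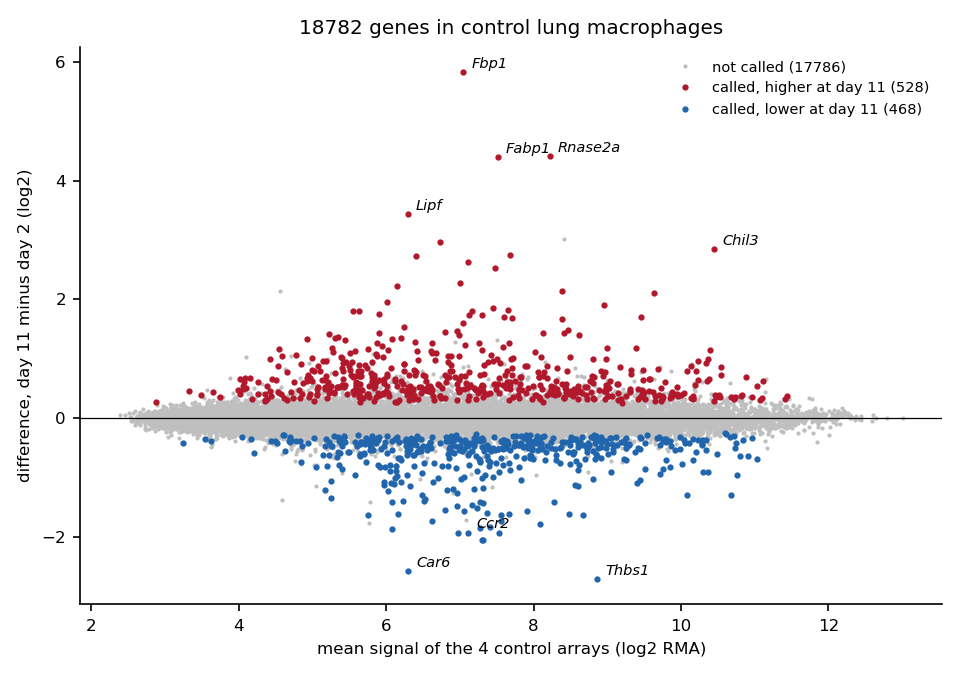
Difference between day 11 and day 2 in control lung macrophages (log2, vertical) against the mean signal of the 4 control arrays (log2 RMA, horizontal), 1 point per gene. Red points are the 528 genes called higher at day 11 and blue points the 468 called lower. The rises reach 5.82 (Fbp1), further from 0 than the deepest fall (Thbs1, -2.70).

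The largest rise was that of Fbp1, and several of the other large rises were in enzymes and carriers of fuel and lipid, given first. Fbp1, the fructose bisphosphatase of gluconeogenesis, had 9.48 and 10.43 at day 11, against 4.04 and 4.23 at day 2, a rise of 5.82 ± 0.46 on the log2 scale or 56.5-fold (SE, n = 2 arrays per group, adjusted p = 0.000682). Fabp1, a cytosolic carrier of fatty acids best known from liver, had 9.89 and 9.54 at day 11, against 5.07 and 5.56 at day 2 (4.40 ± 0.16, 21.1-fold, adjusted p = 5.81e-05). Both were under or near the array median on the day 2 arrays and well above it on the day 11 arrays. Pdk4, a kinase that shuts pyruvate out of the citric acid cycle, had 8.23 and 8.20 against 5.46 and 5.05 (2.96 ± 0.18, 7.78-fold, adjusted p = 0.000313). Ucp3, a mitochondrial carrier induced by fatty acids, had 8.06 and 7.50 at day 11, against 4.99 and 5.09 at day 2 (2.73 ± 0.18, 6.66-fold, adjusted p = 0.000339). Lipf, a lipase first known from the stomach, had 8.20 and 7.83, against 4.41 and 4.73 at day 2 (3.44 ± 0.25, 10.9-fold, adjusted p = 0.000476). Ch25h, which makes 25-hydroxycholesterol, had 9.04 and 9.07 at day 11, against 6.41 and 6.19 at day 2 (2.75 ± 0.19, 6.73-fold, adjusted p = 0.000396). Each of these 6 genes kept its call in every setting tried.

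Fabp1, Ucp3 and Pdk4 are known as targets of PPAR receptors, which bind DNA as partners of RXR at pairs of short motifs close to AGGTCA. Their promoters are shown because they belong to the genes with the largest rises. Each runs 5′ to 3′ from 250 bases before to 50 bases after the RefSeq start site (build GRCm38.p6), with AGGTCA on either strand (TGACCT when read on the other) in capitals.
Fabp1 promoter, chr6:71199629-71199928, plus strand: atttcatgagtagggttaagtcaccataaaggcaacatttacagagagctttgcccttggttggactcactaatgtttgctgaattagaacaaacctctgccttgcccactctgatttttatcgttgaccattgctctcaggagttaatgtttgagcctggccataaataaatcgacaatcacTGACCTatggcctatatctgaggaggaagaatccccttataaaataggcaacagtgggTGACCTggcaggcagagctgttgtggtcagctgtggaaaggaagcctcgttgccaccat
Ucp3 promoter, chr7:100472741-100473040, plus strand: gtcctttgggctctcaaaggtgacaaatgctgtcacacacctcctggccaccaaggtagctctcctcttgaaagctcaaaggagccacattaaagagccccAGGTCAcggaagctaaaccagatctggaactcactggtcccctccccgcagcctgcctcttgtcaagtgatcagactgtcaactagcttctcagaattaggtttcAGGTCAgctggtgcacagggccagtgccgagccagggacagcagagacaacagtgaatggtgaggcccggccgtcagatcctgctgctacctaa
Pdk4 promoter, chr6:5496229-5496528, minus strand: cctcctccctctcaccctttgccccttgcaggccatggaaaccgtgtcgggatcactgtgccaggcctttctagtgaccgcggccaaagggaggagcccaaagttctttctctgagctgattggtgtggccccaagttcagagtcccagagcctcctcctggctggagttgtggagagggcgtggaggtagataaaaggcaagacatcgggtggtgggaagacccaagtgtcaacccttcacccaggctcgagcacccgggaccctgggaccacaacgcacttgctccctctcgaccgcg
The Fabp1 window held 2 such motifs on the opposite strand, beginning at -67 and -9 from the start site, and the Ucp3 window held 2 on the printed strand, at -149 and -44. The windows of Pdk4 and Fbp1 held none. The motif was present in 16.3% of the 32851 promoter windows in the table, so 2 of these 4 is a description and not evidence of binding.

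**Figure D2:**
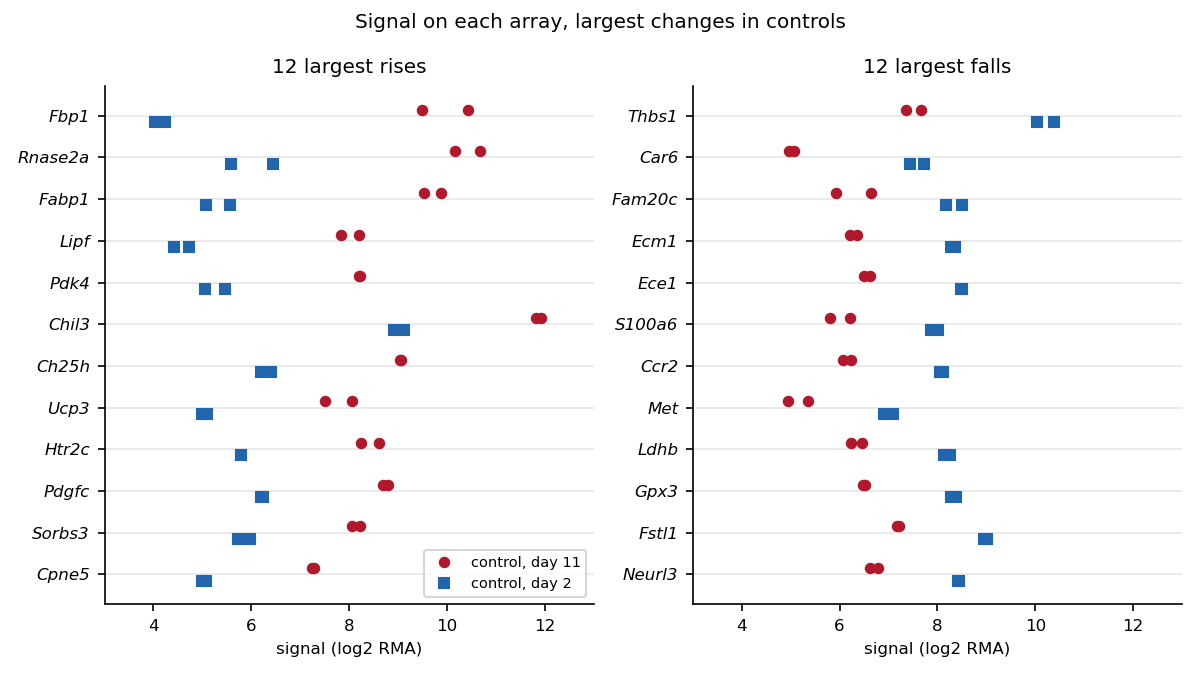
Signal on each control array (log2 RMA, horizontal) for the 12 genes with the largest rises (left panel) and the 12 with the largest falls (right panel). Red circles are the 2 day 11 arrays and blue squares the 2 day 2 arrays, and genes were eligible only where the ages do not overlap. Fbp1 has the widest gap between the ages (9.48 and 10.43 at day 11, 4.04 and 4.23 at day 2).

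The other large rises were in secreted, signalling and membrane-binding proteins. Rnase2a, a ribonuclease of the eosinophil-associated family with the second largest rise of all called genes under the naming rule, had 10.16 and 10.68 at day 11, against 5.59 and 6.44 at day 2 (4.40 ± 0.43, 21.2-fold, adjusted p = 0.00172). Chil3, the chitinase-like protein Ym1 that alveolar macrophages secrete, had 11.82 and 11.93, against 8.92 and 9.12 at day 2 (2.85 ± 0.35, 7.23-fold, adjusted p = 0.00488), and without control day 2 replicate 1 its adjusted p was 0.0548. Pdgfc, a growth factor for fibroblasts, had 8.80 and 8.70 at day 11, against 6.21 and 6.23 at day 2 (2.53 ± 0.14, adjusted p = 0.000172). Chil3 already stood far above the array median at day 2, while Rnase2a and Pdgfc started nearer to it. The serotonin receptor gene Htr2c was 2.64 ± 0.19 higher, the adaptor gene Sorbs3, whose product binds vinculin, 2.28 ± 0.12 higher and the copine gene Cpne5, whose product binds membranes when calcium rises, 2.23 ± 0.06 higher (adjusted p = 0.000441, 0.000172 and 1.22e-05). These 3 and Rnase2a and Pdgfc kept their calls in every setting.

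The largest falls were those of Thbs1, Car6 and Fam20c. Thbs1, the matrix glycoprotein thrombospondin 1, had 7.35 and 7.67 at day 11, against 10.39 and 10.03 at day 2 (-2.70 ± 0.21, 6.49-fold lower, adjusted p = 0.000682). Car6, a secreted carbonic anhydrase, had 5.06 and 4.98, against 7.72 and 7.45 at day 2 (-2.56 ± 0.13, 5.91-fold lower, adjusted p = 0.000158). Car6 thus ended under the array median, and Thbs1 stayed above it. Fam20c, a kinase of secreted proteins, had 5.94 and 6.64 at day 11, against 8.51 and 8.17 at day 2 (-2.05 ± 0.23, adjusted p = 0.00304). Ecm1, an extracellular matrix protein, fell by 2.04 ± 0.09 (adjusted p = 0.000117), and Ece1, which activates endothelin, fell by 1.93 ± 0.10 (adjusted p = 0.000158). The secreted glutathione peroxidase gene Gpx3 fell by 1.83 ± 0.12 (adjusted p = 0.000339), Fstl1, a secreted glycoprotein, fell by 1.78 ± 0.18 (adjusted p = 0.00208) and Neurl3, a ubiquitin ligase, fell by 1.73 ± 0.10 (adjusted p = 0.000238). These 8 genes kept their calls in every setting. Met, the receptor for hepatocyte growth factor, had 4.95 and 5.35, against 7.10 and 6.91 at day 2 (-1.86 ± 0.38, adjusted p = 0.0343). The Met call was lost without any one of the 4 control arrays (adjusted p from 0.11 without control day 11 replicate 2 to 0.19 without control day 11 replicate 1) and with a trend and robust prior.

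Among genes that mark alveolar macrophages, part rose and most were not called, their signal being high at both ages. Of 37 measured, 10 rose and none fell, 27.0% of the list against 5.3% of all genes. The median difference was 0.20 (all genes -0.01), and 34 of the 37 differences were positive. Siglecf and Itgax, which code for proteins of the sort gates, are among the 10, and the Siglec-F limit changed with age. Car4, a carbonic anhydrase of these cells, had 12.07 and 12.11 at day 11, against 12.02 and 11.98 at day 2 (0.09 ± 0.09, adjusted p = 0.651, 95% interval -0.13 to 0.31). The scavenger receptor gene Marco had 9.50 and 9.52 against 9.46 and 9.44 (0.06, adjusted p = 0.883), and the fatty acid carrier gene Fabp4 9.30 and 9.36 against 9.11 and 9.10 (0.22, adjusted p = 0.47). These defining markers were far above the array median at both ages. The spread behind their p-values is shared with the knockout arrays. Mrc1, the mannose receptor, had 11.94 and 11.88, against 11.58 and 11.57 at day 2 (0.34 ± 0.10), and was not called (adjusted p = 0.0992).

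Besides Fabp1 and Chil3, the called members were Kcnip4, Krt79, Flt1, Ctsk, Siglecf, Cidec, Epcam and Itgax. Kcnip4, which codes for a potassium channel partner, had 6.59 and 6.32 at day 11, against 4.53 and 4.75 at day 2 (1.81 ± 0.14, adjusted p = 0.00059). Krt79, a keratin, was 1.14 ± 0.13 higher (adjusted p = 0.00342), the cathepsin gene Ctsk 1.0 ± 0.07 higher (adjusted p = 0.000344) and the adhesion gene Epcam 0.80 ± 0.08 higher (adjusted p = 0.00153), and these 4 kept their calls in every setting. Cidec, which fuses lipid droplets, had 11.01 and 10.92, against 10.07 and 10.15 at day 2 (0.85 ± 0.12, adjusted p = 0.00908). Its call was lost without any one of the 4 control arrays (adjusted p from 0.0522 to 0.083), as was that of Flt1, a VEGF receptor (1.04 ± 0.17, adjusted p = 0.0158, and 0.0845 to 0.118 without 1 control array). Without 1 control array, 6 to 8 members were called.

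Of the 5 genes that code for the sorted surface proteins, 3 rose and 1 fell. Itgam, which codes for CD11b, had 6.22 and 6.32 at day 11, against 7.87 and 7.79 at day 2 (-1.56 ± 0.10, 2.95-fold lower, adjusted p = 0.000313). Siglecf had 10.90 and 10.73, against 9.85 and 9.90 at day 2 (0.94 ± 0.11, adjusted p = 0.00471, and 0.0525 without control day 2 replicate 1). Itgax (CD11c) was 0.64 ± 0.06 higher (adjusted p = 0.00174). Adgre1 (F4/80) had 10.90 and 10.86 at day 11, against 10.55 and 10.56 at day 2 (0.33 ± 0.07, adjusted p = 0.0309), a call lost without any one of the 4 control arrays (adjusted p from 0.114 to 0.168). Ptprc (CD45) showed no call (0.14, adjusted p = 0.225). The gates set other limits for CD11b and Siglec-F at each age, took CD45+ cells high in CD11c at both, and named F4/80 at day 2 alone. These values are given as a check of the gates.

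Of 33 measured monocyte genes, 10 fell, 3 rose and 20 were not called, with a median of -0.21. The 13 called are 39.4% of the list, against 5.3% of all genes (2.49% lower, 2.81% higher). Itgam is among the 10 that fell, and it codes for CD11b, for which the gates differed with age. Ccr2, the chemokine receptor with which monocytes leave the blood, had 6.23 and 6.08 at day 11, against 8.11 and 8.04 at day 2 (-1.92 ± 0.10, 3.79-fold lower, adjusted p = 0.000158). S100a6, a calcium-binding protein, had 6.22 and 5.79, against 8.0 and 7.86 at day 2 (-1.93 ± 0.15, adjusted p = 0.000609). Both ages were apart by more than a log2 unit in each gene. Ms4a6c, a membrane protein of monocytes, fell by 1.41 ± 0.15 (adjusted p = 0.00224), and with Thbs1, Itgam, Ccr2, S100a6 and Emilin2, a matrix glycoprotein (-1.04 ± 0.07, adjusted p = 0.000348, named after its value was seen), it kept its call in every setting. Vcan, the proteoglycan versican, had 5.00 and 4.87, against 6.44 and 6.68 at day 2 (-1.62 ± 0.24, adjusted p = 0.00966), a call lost without any one of the 4 control arrays (adjusted p from 0.0601 to 0.0847). Cx3cr1, the fractalkine receptor, fell by 0.80 ± 0.13 (adjusted p = 0.0151), with adjusted p = 0.0505 without control day 2 replicate 1, and 0.0932 or 0.0963 when replicate 1 or 2 of control day 11 was left out.

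The 3 monocyte genes that rose were Ly86, which encodes a partner of a Toll-like receptor homologue (0.60 ± 0.06, adjusted p = 0.00175), which kept its call in every setting, and Spn and Nr4a1, which mark patrolling monocytes. Spn (0.43 ± 0.09, adjusted p = 0.0347) and Nr4a1 (0.33 ± 0.07, adjusted p = 0.0342) lost their calls without any one of the 4 control arrays (adjusted p up to 0.189 and 0.175), Nr4a1 with the replicate number as a block as well. The summed linear signal of the 33 genes was 24525 and 24432 at day 11, against 27582 and 26957 at day 2. Precursor cells at day 2 thus carried more signal of these genes on both arrays.

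**Figure D3:**
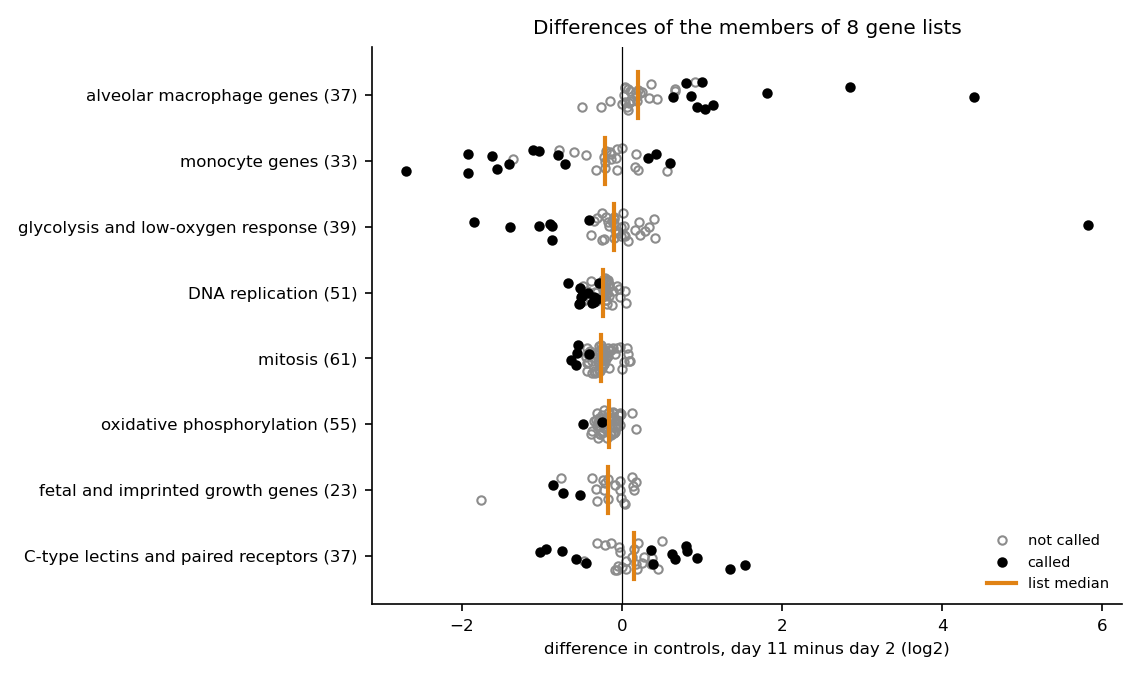
Difference between day 11 and day 2 in controls (log2, horizontal) for every measured member of 8 gene lists, with the number measured in brackets. Filled points were called, open points were not, and the orange bar is the median of the list. Medians run from -0.27 (mitosis) to 0.20 (alveolar macrophage genes).

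Of 45 measured transcription factors of macrophages, 4 rose, 2 fell and 39 were not called, with a median of 0.01. The 6 called are 13.3% of the list, against 5.3% of all genes. Pparg itself had 11.18 and 11.13 at day 11, against 10.89 and 11.01 at day 2 (0.20 ± 0.08, adjusted p = 0.201, 95% interval 0.02 to 0.39). Spi1, the lineage factor PU.1, differed by -0.04 (adjusted p = 0.77), Cebpb by -0.20 (adjusted p = 0.23) and Bhlhe41 by -0.14 (adjusted p = 0.403). These 4 genes stood at 9.9 or higher on average at both ages. Egr2, an early-response factor and a regulator of alveolar macrophages, had 11.25 and 11.21, against 10.51 and 10.56 at day 2 (0.69 ± 0.08, adjusted p = 0.0027), and alone among the 6 kept its call in every setting. Egr2 also belongs to the genes that tissue digestion induces, of which 5 of 28 rose (Nr4a1, Nr4a2 and Nr4a3 among them), and the part of digestion in its rise was not tested.

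Irf4, a factor of alternatively activated macrophages and dendritic cells, had 6.20 and 6.87 at day 11, against 4.85 and 4.61 at day 2 (1.81 ± 0.30, adjusted p = 0.016). The Irf4 call was lost without either day 2 control array (adjusted p = 0.0883 for replicate 1, 0.114 for replicate 2), without control day 11 replicate 2 (0.0962) and with a trend and robust prior. Nfil3 (0.51 ± 0.08, adjusted p = 0.0119) and Stat5a, which carries the GM-CSF signal (0.34 ± 0.07, adjusted p = 0.0311), rose, and Klf2, a factor of quiescent circulating cells (-0.71 ± 0.15, adjusted p = 0.0382), fell with Hif1a. Stat5a and Klf2 lost their calls without any one of the 4 control arrays (adjusted p up to 0.166 and 0.203), and Nfil3 lost its call without control day 11 replicate 1 (0.0999) or either day 2 control array (0.0612 for replicate 1, 0.0926 for replicate 2). Among 30 genes that carry GM-CSF or TGF-β signals, 3 rose and 1 fell (13.3%), with a median of 0.03. Cish, a feedback inhibitor induced by STAT5, was 0.56 ± 0.09 higher (adjusted p = 0.0167), and Skil, which restrains SMAD factors, 0.33 ± 0.06 higher (adjusted p = 0.0237). Socs3, a feedback inhibitor induced by STAT3, had 6.50 and 7.22, against 8.49 and 8.46 at day 2 (-1.61 ± 0.20, 3.06-fold lower, adjusted p = 0.00499). Each of these 3 calls was lost with at least 1 control array left out, which leaves 1 array in that group. Socs3 lost its call without control day 2 replicate 1. Cish lost its call without either day 2 control array or without control day 11 replicate 2, and Skil without any one control array. A second Socs3 probe set of lower signal differed by -0.34.

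Of 39 measured genes of glycolysis and of the response to low oxygen, 7 fell, 1 (Fbp1) rose and 31 were not called, with a median of -0.10. The 8 called are 20.5% of the list, against 5.3% of all genes. Ldhb, a lactate dehydrogenase subunit, had 6.23 and 6.45 at day 11, against 8.25 and 8.14 at day 2 (-1.85 ± 0.21, 3.61-fold lower, adjusted p = 0.00342), and its second probe set differed by -1.67. Egln3, an oxygen-sensing prolyl hydroxylase that is itself induced at low oxygen, had 5.39 and 5.37, against 6.64 and 6.92 at day 2 (-1.40 ± 0.15, 2.64-fold lower, adjusted p = 0.00238). Both kept their calls in every setting. Vegfa, the angiogenic growth factor, had 7.17 and 7.45 at day 11, against 8.47 and 8.21 at day 2 (-1.03 ± 0.20, adjusted p = 0.0257). Slc2a1, the glucose transporter GLUT1, had 9.82 and 10.01, against 10.83 and 10.79 at day 2 (-0.90 ± 0.12, adjusted p = 0.00646). Ndrg1, a stress-induced gene, fell by 0.88 ± 0.13 (adjusted p = 0.0101) and Hk2, the inducible hexokinase, fell by 0.88 ± 0.12 (adjusted p = 0.00861, named after its value was seen). Hif1a, the oxygen-regulated factor, had 9.84 and 9.98, against 10.34 and 10.30 at day 2 (-0.41 ± 0.09, adjusted p = 0.0415). The calls of Vegfa (adjusted p up to 0.164) and Hif1a (up to 0.216) were lost without any one of the 4 control arrays, that of Slc2a1 without control day 2 replicate 1 (0.0662), control day 2 replicate 2 (0.0527) or control day 11 replicate 1 (0.0644), and that of Ndrg1 without control day 2 replicate 1 (0.0699), control day 2 replicate 2 (0.0854) or control day 11 replicate 2 (0.0722). Hk2 reached 0.0785 when replicate 1 of control day 2 was left out and 0.0517 when replicate 1 of control day 11 was. Hif1a also lost its call without either day 11 knockout array (0.0612), with the replicate number as a block and after cyclic loess.

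Most enzymes of glycolysis proper did not pass the test. Gapdh differed by 0.01 (adjusted p = 0.948), Aldoa by -0.04 (adjusted p = 0.799), Ldha by -0.26 (adjusted p = 0.0814) and Pgk1 by -0.35 (adjusted p = 0.123), named here after their values were seen. Factors of the HIF family bind a core of ACGTG. The promoters of Egln3 and Slc2a1 are shown because both genes fell and are known to be induced at low oxygen, with ACGTG on either strand (CACGT when read on the other) in capitals. This core is also part of the E-box CACGTG, to which other factors bind.
Egln3 promoter, chr12:54203825-54204124, minus strand, GRCm38.p6: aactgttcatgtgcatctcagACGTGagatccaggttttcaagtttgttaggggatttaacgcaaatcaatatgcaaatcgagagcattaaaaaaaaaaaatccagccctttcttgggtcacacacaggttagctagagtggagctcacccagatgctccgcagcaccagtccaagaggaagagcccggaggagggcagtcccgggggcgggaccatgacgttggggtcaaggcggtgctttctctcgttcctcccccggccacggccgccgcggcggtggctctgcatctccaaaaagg
Slc2a1 promoter, chr4:119108495-119108794, plus strand, GRCm38.p6: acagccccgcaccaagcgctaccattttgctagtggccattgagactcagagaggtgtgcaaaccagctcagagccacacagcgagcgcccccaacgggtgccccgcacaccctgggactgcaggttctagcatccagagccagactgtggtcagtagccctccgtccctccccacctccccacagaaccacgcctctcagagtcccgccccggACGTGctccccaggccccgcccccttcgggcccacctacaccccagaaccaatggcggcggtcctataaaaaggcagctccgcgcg
The core began at -229 in the Egln3 window and at -36 in the Slc2a1 window. Of the 7 genes that fell, 6 had a promoter in the table, and 5 of their 7 windows held the core, those of Hk2, Hif1a and 1 of 2 for Vegfa beside these. Over all 32851 windows the share was 19.6%. The genes were taken from a list of glycolysis and the low-oxygen response, so these matches are a description and not evidence of binding. The window of Ldhb held none, and Ndrg1 had no entry.

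Of 51 measured genes of DNA replication, 12 fell and none rose, 23.5% of the list against 2.49% of all genes called lower, with a median of -0.23, and 49 of the 51 differences were negative. Of 61 genes of mitosis, 5 fell and none rose (8.2%), with a median of -0.27 and 55 negative differences. Gins1, a subunit of the replicative helicase, had 7.69 and 7.61 at day 11, against 8.30 and 8.37 at day 2 (-0.68 ± 0.08, 1.6-fold lower, adjusted p = 0.00294), and it alone among the 17 kept its call in every setting. Mcm10, which helps start replication, had 7.23 and 7.18, against 7.75 and 7.73 at day 2 (-0.53 ± 0.09, adjusted p = 0.0142). The helicase subunit gene Mcm2 had 9.20 and 9.13 at day 11, against 9.66 and 9.68 at day 2 (-0.50 ± 0.11, adjusted p = 0.0376). Ccne1, which codes for cyclin E1 of the entry into S phase, fell by 0.53 ± 0.11, Uhrf1, which keeps DNA methylation through replication, by 0.52 ± 0.11 and Fen1, a flap endonuclease, by 0.51 ± 0.08 (adjusted p = 0.0377, 0.0334 and 0.0149).

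Of the mitosis genes, the kinesin gene Kif22 fell by 0.64 ± 0.12 (adjusted p = 0.0258), the phosphatase gene Cdc25c fell by 0.58 ± 0.10 (adjusted p = 0.022), Cdca3 by 0.56 ± 0.11 (adjusted p = 0.0346), the factor Mybl2 of the G2 and M phases by 0.56 ± 0.10 (adjusted p = 0.0199) and the spindle gene Dlgap5 by 0.42 ± 0.09 (adjusted p = 0.046). These small calls were fragile. Without 1 control array, 1 or 2 replication genes and at most 1 mitosis gene were called, with adjusted p from 0.071 to 0.213 for the replication genes that lost the call without a control array and 0.0755 to 0.222 for the mitosis genes. The Fen1 call was also lost when the probe sets of a gene were averaged. The mean of the 4 control arrays lay above the array median for all 61 mitosis genes and for 50 of the 51 replication genes. Pcna, the sliding clamp of replication, had 11.8 on average at both ages (0.04, adjusted p = 0.924, named after its value was seen).

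Of 30 cyclins, their inhibitors and related regulators, 3 rose and 1 fell, 13.3% of the list against 5.3% of all genes, with a median of 0.05. Cdkn1a, the inhibitor p21, had 11.63 on both day 11 arrays, against 11.18 and 11.33 at day 2 (0.38 ± 0.08, adjusted p = 0.038), and Ccng1 and Ccng2, cyclins linked to arrest, were 0.35 ± 0.07 and 0.38 ± 0.08 higher (adjusted p = 0.0305 and 0.0324). Cdkn2d, the inhibitor p19, fell by 0.30 ± 0.07 (adjusted p = 0.0425). The Cdkn2d call was lost on the 4 control arrays alone, with a replicate block and with a trend and robust prior. A covariate for Y-linked signal removed the calls of Cdkn2d and Cdkn1a. Each of the 4 calls was lost without any one of the 4 control arrays (adjusted p from 0.0604 to 0.199). Ccnd1 differed by -0.39 (adjusted p = 0.173), Ccnd2 by 0.32 (adjusted p = 0.315) and Myc by 0.24 (adjusted p = 0.213).

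**Figure D4:**
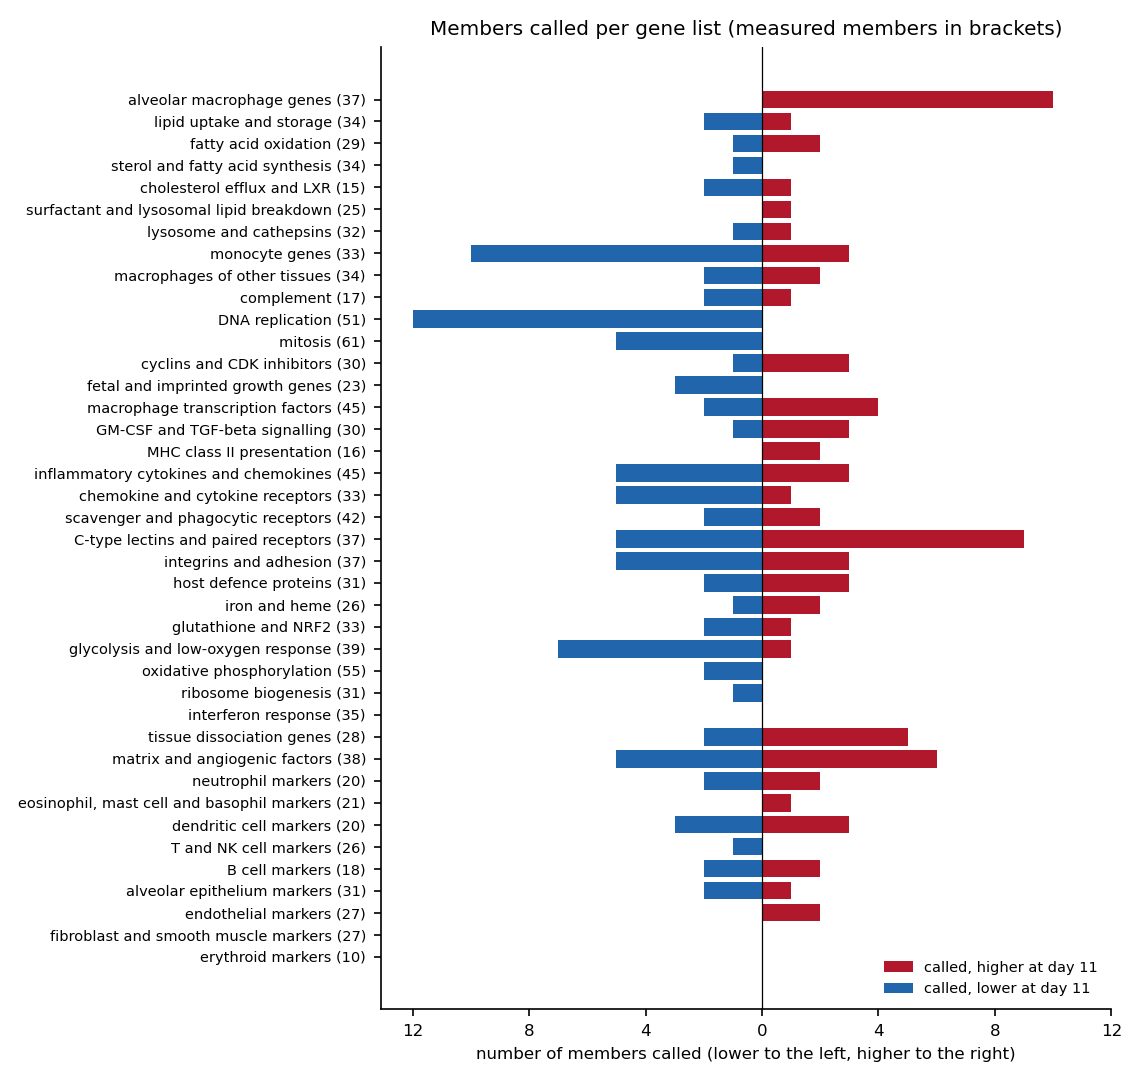
Number of members called per gene list (horizontal), higher at day 11 to the right in red and lower at day 11 to the left in blue, with the number of measured members in brackets. Replication (12 lower), monocyte (10 lower) and alveolar macrophage genes (10 higher) have the longest bars.

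Of 34 genes of lipid uptake and storage, 1 (Cidec) rose and 2 fell, 8.82% of the list against 5.3% of all genes, with a median of 0.02. The control mean lay above the array median for 29 of the 34, and 1089 of 11269 genes were called after the filter on low signal. The 2 were Slc27a4, a fatty acid transporter (-0.72 ± 0.08, adjusted p = 0.00325), which kept its call in every setting, and Dgat2, which makes triglyceride (-0.57 ± 0.11, adjusted p = 0.0275, and 0.136 to 0.141 without any one control array). The lipid droplet coat gene Plin2 averaged 12.3 in the day 11 cells and 12.2 in the day 2 cells (0.12, adjusted p = 0.356) and the fatty acid receptor gene Cd36 11.8 and 11.7 (0.10, adjusted p = 0.572), both named after their values were seen. Of 29 genes of fatty acid oxidation, Pdk4 and Acot1, an acyl-CoA thioesterase, rose and Acadl, an acyl-CoA dehydrogenase, fell (10.3% of the list), with a median of 0.03. The control mean lay above the array median for 27 of the 29. Acot1 (0.71 ± 0.15, adjusted p = 0.0395) lost its call without any single control array (adjusted p up to 0.211), without either day 11 knockout array (0.053) and with a replicate block. Acadl (-0.44 ± 0.06, adjusted p = 0.00748) reached 0.0699 without control day 2 replicate 1, and 0.0632 or 0.0522 when replicate 1 or 2 of control day 11 was left out.

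Among 15 genes of cholesterol efflux and of the oxysterol receptor LXR, Ch25h rose and the apolipoprotein genes Apoe and Apoc2 fell (20.0% of the list, against 5.3% of all genes), with a median of -0.10. Apoc2 had 6.28 and 6.35 at day 11, against 7.59 and 7.42 at day 2 (-1.19 ± 0.11, 2.28-fold lower, adjusted p = 0.00121), in every setting. Apoe had 10.11 and 9.95, against 11.37 and 11.28 at day 2 (-1.29 ± 0.20, 2.45-fold lower, adjusted p = 0.0127), a call lost without any one of the 4 control arrays (adjusted p from 0.0791 to 0.0971) and with a trend and robust prior. Of 34 genes of sterol and fatty acid synthesis, 1 fell, the desaturase gene Fads2 (-0.61 ± 0.11, adjusted p = 0.0238, and 0.059 to 0.154 without any one control array), and none rose. Of 25 genes that break down surfactant and other lipids in lysosomes, 1 rose, Pla2g15, the lysosomal phospholipase that degrades surfactant phospholipid (0.38 ± 0.06, adjusted p = 0.0146, and 0.075 to 0.107 without any one control array). Among 32 lysosome genes, Ctsk rose and Cd63, a membrane protein of late endosomes, fell, with a list median of -0.02. Cd63 had 9.39 and 9.48 at day 11, against 10.77 and 10.69 at day 2 (-1.29 ± 0.06, 2.45-fold lower, adjusted p = 0.000158).

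Of 55 measured subunits of oxidative phosphorylation, 53 were not called. The differences ran from -0.49 to 0.18 with a median of -0.17, and 53 were negative. The 2 genes called, both lower, were Atp5k of the ATP synthase (-0.49 ± 0.08, adjusted p = 0.0157) and Ndufa10 of complex I (-0.26 ± 0.06, adjusted p = 0.0484). Both calls were lost without any one of the 4 control arrays (adjusted p from 0.0691 to 0.2), and that of Ndufa10 also without any one knockout array (up to 0.0684). On the 4 control arrays alone, with a replicate block and with a covariate for Y-linked signal, Ndufa10 was not called either. The 2 calls of the main fit are 3.64% of the list, against 2.49% of all genes called lower. Of 31 genes of ribosome biogenesis, 1 fell, Nhp2 (-0.43 ± 0.08, adjusted p = 0.0252, and 0.0818 to 0.137 without any one control array), with a median of -0.10.

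Of 23 fetal and imprinted growth genes, 3 fell and none rose, 13% of the list against 2.49% of all genes called lower, with a median of -0.18, and the mean of the control arrays was above the array median for 10. Igf2, the fetal growth factor, had 4.94 and 5.01 at day 11, against 5.65 and 6.02 at day 2 (-0.86 ± 0.11, 1.82-fold lower, adjusted p = 0.00626, and 0.0644 without control day 11 replicate 1). Mest had 5.21 and 5.50, against 6.03 and 6.16 at day 2 (-0.74 ± 0.11, adjusted p = 0.0114), and reached 0.065, 0.0925 and 0.0782 without control day 2 replicate 1, control day 2 replicate 2 and control day 11 replicate 1. Dlk1, a membrane-bound inhibitor of differentiation, had 5.52 and 5.50 at day 11, against 5.99 and 6.10 at day 2 (-0.53 ± 0.09, adjusted p = 0.0136, and 0.0676 to 0.101 without any one control array). All 3 ended near or under the array median. Igf2bp3, which binds fetal transcripts, stood higher, at 8.8 on average at day 11 and 9.1 at day 2 (-0.38, adjusted p = 0.0605). Igf2r, the receptor that clears IGF2, had 4.81 and 4.97, against 6.79 and 6.51 at day 2, a difference of -1.76 ± 0.71 that was not called (adjusted p = 0.203).

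C-type lectins and paired receptors, which sense glycans and tune activation, held many calls in both directions. Of 37 measured, 9 rose and 5 fell, 37.8% of the list against 5.3% of all genes, with a median of 0.15. Clec4b1 had 7.28 and 6.75 at day 11, against 5.55 and 5.40 at day 2 (1.54 ± 0.16, 2.91-fold, adjusted p = 0.0019), Cd22, a sialic acid receptor, was 0.67 ± 0.08 higher (adjusted p = 0.00342) and Cd200r4 0.82 ± 0.10 higher (adjusted p = 0.0045), all 3 in every setting. Clec9a, which senses dead cells and is best known from dendritic cells, had 6.14 and 5.82, against 4.55 and 4.73 at day 2 (1.34 ± 0.18, adjusted p = 0.00622, and 0.0677 and 0.0609 without control day 2 replicate 1 and control day 11 replicate 1). The inhibitory receptor gene Cd300a had 8.19 and 8.40, against 9.39 and 9.23 at day 2 (-1.02 ± 0.13, adjusted p = 0.00488, and 0.0545 without control day 2 replicate 1). Clec4a1, Siglecg, Clec10a and Cd300lf, receptors of the lectin, Siglec and CD300 families, were lower as well, with differences of -0.96 ± 0.16, -0.76 ± 0.11, -0.58 ± 0.08 and -0.46 ± 0.07 (adjusted p = 0.0172, 0.0108, 0.00719 and 0.0108). Each of the 5 that fell lost its call without at least 1 control array (adjusted p up to 0.122 for Clec4a1).

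Among 42 scavenger and phagocytic receptors, 2 rose and 2 fell (9.52%, against 5.3% of all genes). The control mean lay above the array median for 34 of the 42, and 1089 of 11269 genes were called after the filter on low signal. Fcgr2b, the inhibitory Fc receptor, had 9.89 and 9.90 at day 11, against 9.26 and 9.22 at day 2 (0.66 ± 0.07, adjusted p = 0.00227), and Mfge8, which bridges dying cells to phagocytes, 7.97 and 8.09 against 9.15 and 9.19 (-1.14 ± 0.13, 2.2-fold lower, adjusted p = 0.00359), both in every setting. Msr1, the class A scavenger receptor, fell by 0.70 ± 0.09 (adjusted p = 0.00508, and 0.0548 without control day 2 replicate 1) and Tlr8 was 0.39 ± 0.07 higher (adjusted p = 0.0258, and 0.0874 to 0.159 without any one control array). Of 16 genes of antigen presentation on MHC class II, 2 rose, the costimulatory gene Cd80 (0.81 ± 0.08, adjusted p = 0.00227, in every setting) and the peptide-loading gene H2-DMa (0.55 ± 0.08, adjusted p = 0.0109, and 0.0592 to 0.0911 without any one control array). Among 17 complement genes, the anaphylatoxin receptor gene C3ar1 had 5.43 and 5.62 at day 11, against 6.96 and 6.88 at day 2 (-1.40 ± 0.14, 2.63-fold lower, adjusted p = 0.00198), in every setting. The other calls there were the gate genes Itgax and Itgam.

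Cytokines and chemokines moved in both directions. Of 45 measured, 3 rose and 5 fell, 17.8% of the list against 5.3% of all genes, with a median of 0.00. Ccl17, which attracts T cells, had 10.41 and 10.98 at day 11, against 8.64 and 8.53 at day 2 (2.11 ± 0.26, 4.32-fold, adjusted p = 0.00499, and 0.0516 without control day 2 replicate 2). Il6 had 9.01 and 9.42, against 7.54 and 7.91 at day 2 (1.49 ± 0.18, 2.81-fold, adjusted p = 0.00458), in every setting. Ccl2, which attracts monocytes, had 7.77 and 7.63 at day 11, against 6.18 and 6.28 at day 2 (1.47 ± 0.23, adjusted p = 0.0114), a call lost without any one of the 4 control arrays (adjusted p from 0.0664 to 0.0978). Tnfsf14, a TNF family ligand, fell by 0.95 ± 0.11 (adjusted p = 0.00342) in every setting, and Tnfsf9 (-1.07 ± 0.23, adjusted p = 0.0405) and Ccl9 (-0.69 ± 0.10, adjusted p = 0.00793) lost their calls without single control arrays (adjusted p up to 0.203 and 0.0762). Genes that the digestion of tissue induces held calls as well: of 28, 5 rose and 2 fell, 25.0% of the list against 5.3% of all genes, with a median of 0.15. Nr4a3 and Nr4a2, early-response nuclear receptors, were 1.01 ± 0.07 and 0.79 ± 0.07 higher (adjusted p = 0.000407 and 0.00121) and Ier3 fell by 0.78 ± 0.11 (adjusted p = 0.0083, and 0.0755 and 0.062 without control day 2 replicate 1 and control day 2 replicate 2). The summed linear signal of the 28 was 38758 and 38174 at day 11, against 34553 and 34262 at day 2, and its part in the cytokine changes was not tested.

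Factors that act on the matrix and vessels changed in both directions too, 6 of 38 rising and 5 falling, 28.9% of the list against 5.3% of all genes. Mmp12, the macrophage elastase, had 9.05 and 9.38 at day 11, against 7.66 and 7.44 at day 2 (1.66 ± 0.13, 3.17-fold, adjusted p = 0.000682), and the collagenase gene Mmp8 8.06 and 7.64 against 6.22 and 6.26 (1.61 ± 0.14, 3.05-fold, adjusted p = 0.00112). The angiogenic matrix protein gene Ccn1 had 5.66 and 5.58, against 6.54 and 6.71 at day 2 (-1.01 ± 0.10, 2.01-fold lower, adjusted p = 0.00179). Mmp12, Mmp8 and Ccn1 kept their calls in every setting, and with Pdgfc, Thbs1 and Vegfa they made up the larger changes of the list. Of 31 host defence proteins, 3 rose and 2 fell (16.1%). Slpi, an inhibitor of leukocyte proteases, had 8.42 and 8.35 at day 11, against 6.59 and 6.46 at day 2 (1.86 ± 0.08, 3.64-fold, adjusted p = 7.29e-05), and S100a8, a calgranulin subunit, 6.73 and 6.46 against 8.12 and 7.94 (-1.43 ± 0.15, 2.7-fold lower, adjusted p = 0.00254), both in every setting. Among 37 integrins and adhesion genes, 3 rose and 5 fell (21.6%), the gate genes Itgax and Itgam among them. The tight-junction gene Cldn1 had 9.50 and 9.67, against 8.24 and 8.56 at day 2 (1.18 ± 0.15, 2.27-fold, adjusted p = 0.00499).

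Interferon response genes were not called: limma called 0 of 35, with 1 at an unadjusted p under 0.05 and 8 called in the fit on the 4 control arrays alone. Their summed linear signal was 7280 and 7181 at day 11, against 8772 and 6989 at day 2, so the day 2 arrays lay on either side of the day 11 arrays.

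Markers of other cells that the gate could hold moved unevenly. The mean of the control arrays was above the array median for 9 of 20 neutrophil and 9 of 20 dendritic cell markers. It was above it for 4 of 26 T and NK cell and 3 of 18 B cell markers. Against 5.3% of all genes, 30.0% of dendritic cell, 22.2% of B cell and 20.0% of neutrophil markers were called. For T and NK cells the share was 3.85%, and for eosinophils, mast cells and basophils 4.76%. Of 20 neutrophil markers, Mmp8 and Retnlg rose and S100a8 and Il1r2 fell (Il1r2 with adjusted p up to 0.139 without 1 control array), and their summed linear signal was 4011 and 3906 at day 11, against 3707 and 3708 at day 2. Of 21 markers of eosinophils, mast cells and basophils, 1 rose, Siglecf, which is the only one above the array median. For 26 T and NK cell markers the sums were 2555 and 2138 at day 11, against 1908 and 1783 at day 2, with 1 call, Il7r, which fetal monocytes and their progeny express as well (-1.59 ± 0.32, adjusted p = 0.0334, and 0.059 to 0.189 without any one control array). Of 18 B cell markers, Cd22 and Ms4a1 (0.61 ± 0.13, adjusted p = 0.0387, and up to 0.21 without 1 control array) rose and Cd79b (-1.41 ± 0.08, adjusted p = 0.000172) and Bank1 (-0.81 ± 0.09, adjusted p = 0.00263) fell, with sums of 2189 and 2203 against 2090 and 2003. The dendritic cell list had 3 rises (Ccl17, Irf4 and Clec9a) and 3 falls (Cd24a, Clec10a and Tcf4) in 20, each lost without at least 1 control array (adjusted p from 0.0516 to 0.154), and sums of 4461 and 5068 against 4127 and 4071. Its part in the changes of Irf4, Ccl17 and Clec9a was not tested.

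Markers of structural lung cells were mostly not called, though part of them had signal at both ages. The mean of the control arrays was above the array median for 23 of 31 alveolar epithelial markers. It was above it for 15 of 27 endothelial and 15 of 27 fibroblast and smooth muscle markers. The share called was 9.68% for epithelial and 7.41% for endothelial markers, against 5.3% of all genes. After the filter on low signal, 1089 of 11269 genes were called. Of 31 alveolar epithelial markers, 1 rose (Epcam) and 2 fell, Hopx (-0.53 ± 0.09, adjusted p = 0.0157, and 0.0865 to 0.109 without single control arrays) and Cldn4 (-0.36 ± 0.08, adjusted p = 0.0389, and 0.0873 to 0.206 without any one control array, 0.0521 without either day 11 knockout array), with sums of 7221 and 7758 at day 11, against 6453 and 6501 at day 2. The surfactant protein gene Sftpc had 7.97 and 8.54 at day 11, against 8.74 and 8.54 at day 2 (adjusted p = 0.461, named after its value was seen). Of 27 endothelial markers, Flt1 and Calcrl (0.56 ± 0.09, adjusted p = 0.0129, and 0.0581 to 0.0966 without any one control array) rose. Limma called 0 of 27 fibroblast and smooth muscle markers and 0 of 10 erythroid markers, with 6 and 2 at an unadjusted p under 0.05 and 1 of each list called on the control arrays alone. Their sums were 1290 and 1285 against 1386 and 1357 for the first list and 238 and 233 against 215 and 210 for the second.

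The same ages were compared in the knockouts, whose arrays are others than those of the controls. Between day 11 and day 2 the knockouts had 1655 genes higher (8.81%) and 1260 lower (6.71%). Of the 86 genes at least 2-fold higher in controls, 47 also rose in knockouts, 5 fell there and 34 had no call, and of the 62 at least 2-fold lower, 42 also fell, 4 rose and 16 had no call. The test of the difference between the changes called 615 genes (3.27%), 373 with the control change above the knockout change and 242 below, and 38 of the 86 and 24 of the 62 were among them. The number called fell to 197 without control day 2 replicate 1 and rose to 942 without knockout day 2 replicate 2.

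For some of the rising fuel genes the change differed between the genotypes, and for others it did not pass the test. Pdk4 rose by 2.96 in controls and 2.78 in knockouts (difference of the changes 0.18 ± 0.26, adjusted p = 0.792), and Cidec by 0.85 and 0.86 (-0.01 ± 0.17, adjusted p = 0.989). Fabp1 rose by 4.40 in controls and 0.65 in knockouts, a difference of 3.75 ± 0.23 (adjusted p = 0.000399), and Ucp3 by 2.73 and 0.88 (1.86 ± 0.25, adjusted p = 0.00903, and 0.0585 without control day 2 replicate 1). Cpne5 rose by 2.23 in controls and differed by 0.03 in knockouts (2.20 ± 0.09, adjusted p = 7.77e-05). Fbp1 changed by 5.82 and 3.77, and the difference of 2.04 ± 0.65 was not called (adjusted p = 0.165).

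Some genes moved against each other in the genotypes. Ccl17 rose by 2.11 in controls and fell by 1.24 in knockouts (difference 3.35 ± 0.37, adjusted p = 0.00418). Chst15, a sulfotransferase of chondroitin sulfate, had 6.90 and 7.05 in controls at day 11, against 5.81 and 5.89 at day 2, and 4.99 and 4.72 in knockouts at day 11, against 6.36 and 6.37 at day 2 (difference 2.63 ± 0.14, adjusted p = 0.000178). Retnlg, a resistin-like secreted protein, rose by 1.06 in controls and fell by 1.63 in knockouts (2.69 ± 0.16, adjusted p = 0.00033). Fstl1 fell by 1.78 in controls and rose by 1.36 in knockouts (-3.15 ± 0.26, adjusted p = 0.00115), and Ecm1 fell by 2.04 and rose by 0.43 (-2.47 ± 0.13, adjusted p = 0.000178). Car6 fell in controls and differed by 0.13 in knockouts, which had 9.14 and 9.48 at day 11 and 9.24 and 9.11 at day 2 (-2.69 ± 0.18, adjusted p = 0.000536).

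Other large differences came from genes that fell in both genotypes by unequal amounts. Clec4a1, a lectin of monocytes, fell by 0.96 in controls and by 4.33 in knockouts, where it had 6.12 and 6.31 at day 11, against 10.81 and 10.27 at day 2 (difference 3.37 ± 0.23, adjusted p = 0.000536). Adgre4, an adhesion receptor of monocytes, fell by 0.80 in controls and by 3.84 in knockouts (3.04 ± 0.13, adjusted p = 7.77e-05), and Il1r2, the decoy receptor for interleukin 1, by 0.48 and 3.27 (2.79 ± 0.12, adjusted p = 7.77e-05). In contrast, Cd63 fell by 1.29 in controls and rose by 0.38 in knockouts (-1.67 ± 0.09, adjusted p = 0.000198). The replication genes Gins1 and Mcm10 differed by -0.68 and -0.53 in controls and by -0.62 and -0.64 in knockouts, without a call of the difference (adjusted p = 0.843 and 0.73).

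**Figure D5:**
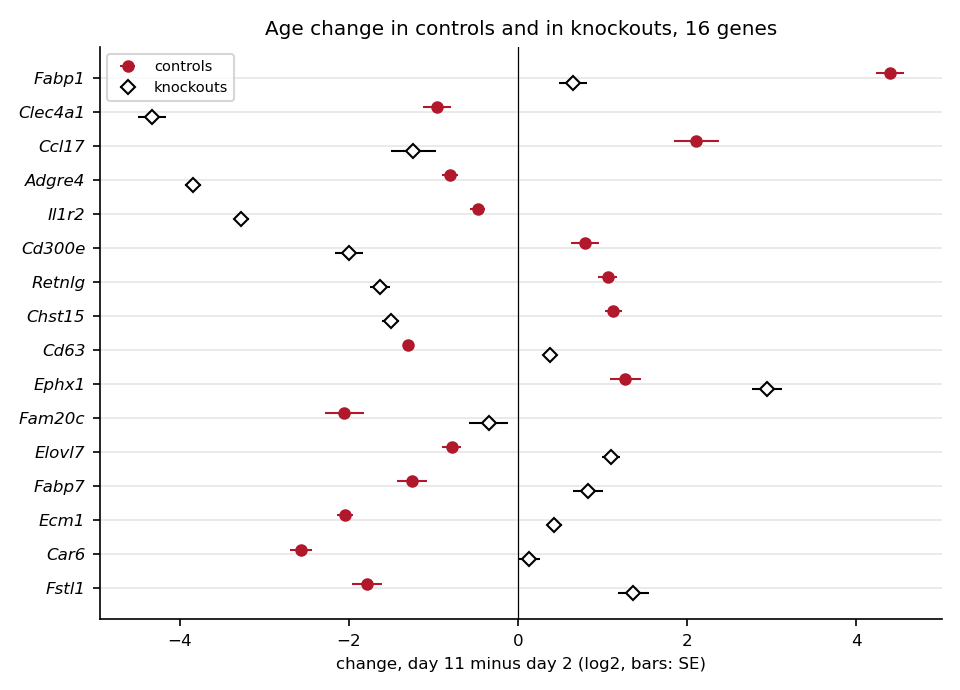
Change between day 11 and day 2 (log2, horizontal) in controls (red circles) and in knockouts (white diamonds) for 16 genes called in controls and in the test of the difference, 8 with the control change above and 8 with it below the knockout change. Bars are standard errors. Fabp1 stands at 4.40 in controls and 0.65 in knockouts.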

How the data were processed

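Expression was measured on 8 Affymetrix arrays, 2 in each of 4 groups. The deposited table holds log2 values for 28874 probe sets, which the authors made by RMA, a method of background adjustment, quantile normalisation and probe summary, with R version 2.15.2, both named per the submitters' processing notes. Whether exons or whole transcripts were summarised could not be taken from the labels. Since arrays agreed to within 0.026 log2 units at every rank, a shift of all genes could not be seen. The number of arrays limits the precision, and scanner files were not used here.

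Probe sets were named through the platform annotation, updated by Entrez identifier with the RefSeq gene table. A single symbol was found for 21159, several for 1881 and no entry for 5834. For the 1368 genes with several probe sets the one with the highest mean over 8 arrays was kept, which left 18782 genes. The model was limma's (version 3.58.1, run under R 4.3.3; 1 mean per group, all 8 arrays, 4 residual and 3.77 prior degrees of freedom), with contrasts for control day 11 minus day 2, the same in knockouts, and the difference of the changes. P-values were Benjamini-Hochberg adjusted over all genes of a contrast, and adjusted p under 0.05 was a call. Differences carry SEs from this fit, so a wide spread between knockout arrays widens the SE of a control change. The fit was also run on simulated arrays of independent values with known changes, and no result given here rests on that run. Alternatives were the 4 control arrays alone, a replicate block, a trend and robust prior, a filter at the 40th percentile of gene means, averaged probe sets, cyclic loess, a covariate from Y-linked genes (3 of the 4 planned, Ddx3y having no gene tested) and leaving out each array in turn.

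Members of 42 gene lists, of which 118 of 1386 entries matched no gene tested, were described by counts and medians without a list test. The comparison, its members and the lists were chosen with earlier results of these data known. Named genes are taken from a rule: the 12 largest rises and falls among called genes whose arrays do not overlap, without gene models, clones and receptor gene families; up to 6 called members of each list and those moving against its majority; members of the gate, fetal, transcription factor and cyclin lists; Pparg; and the 8 largest differences of the changes in each direction among genes also called in controls. Defining markers of the cell type and 2 sex-linked genes are named beside them, and genes outside the rule are marked as named after their values were seen. Promoter windows came from RefSeq (GRCm38.p6). Plots used matplotlib 3.10.9 and Python 3.11.15.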

Additional observations from a re-analysis of the deposited data

Results flagged for a closer look

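For 49 of the genes named above, the change with age differed between controls and knockouts in limma's test of the difference at an adjusted p under 0.05, with 2 arrays per group, and 23 of these kept that call without any single array. The values below are control change minus knockout change on the log2 scale. They compare animals that also differ in the day 11 gate, so genotype and gate cannot be told apart.

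Of the 23 genes, the control change lay above the knockout change in 16. The difference was 3.75 for Fabp1, 3.37 for Clec4a1, 3.35 for Ccl17, 3.04 for Adgre4, 2.79 for Il1r2, 2.69 for Retnlg and 2.63 for Chst15. It was 2.20 for Cpne5, 2.09 for Cx3cr1, 1.20 for Nr4a3, 1.13 for Clec10a, 1.11 for Cd80, 1.07 for Epcam, 0.94 for Ly86, 0.94 for Nr4a2 and 0.80 for Cd79b. The control change lay below the knockout change in 7, with a difference of -3.15 for Fstl1, -2.69 for Car6, -2.47 for Ecm1, -1.67 for Cd63, -1.44 for Itgam, -1.11 for Bhlhe41 and -0.68 for Acadl. Itgam codes for CD11b, on which the day 11 gates differed.

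The other 26 lost the call without at least 1 of the 8 arrays, with a highest adjusted p from 0.0506 to 0.157. Among these the difference was 2.11 for Irf4, 1.88 for Ccl2, 1.86 for Ucp3, 1.81 for Htr2c, 1.33 for Cldn1, 1.32 for Mmp12, 1.17 for Mmp8 and 1.10 for Clec4b1. It was 1.08 for Krt79, 0.74 for Bank1, 0.71 for Cish, 0.69 for Fcgr2b, 0.64 for Spn and 0.43 for Skil. It was negative in 12, at -1.71 for Fam20c, -1.55 for S100a6, -1.30 for Mfge8, -1.25 for Gpx3, -1.13 for Egln3, -1.03 for Cd300a, -0.79 for Cd24a, -0.79 for Hopx, -0.77 for Msr1, -0.69 for Emilin2, -0.63 for Slc27a4 and -0.50 for Pla2g15.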

How the results depend on the processing

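Every gene named above that was called in more than 1 setting kept its direction in each. Of the 129 named genes that were called, 59 kept the call in every alternative and the others lost it in at least 1, mostly with a control array left out. With the 4 control arrays alone, 1581 genes were called with age, 847 higher and 734 lower, and 964 of the 996 were shared. The replicate block gave 975 genes (541 higher, 434 lower, 152 at least 2-fold) and 558 for the difference of the changes. Residuals of same-numbered arrays correlated from -0.075 to 0.25 between groups. With 2 arrays per group this cannot settle whether the numbers pair the samples. A covariate for Y-linked signal left 401 genes in the difference of the changes, against 615. Without single arrays the count with age ran from 233 to 1292, those higher from 138 to 703, those lower from 94 to 589, those at least 2-fold from 102 to 154, and those of the difference of the changes from 197 to 942. The trend and robust prior, the filter, averaged probe sets and cyclic loess moved no count by more than 1.5 times. Precision is limited by 2 arrays per group, and leaving out an array leaves 1 in its group. The cause of these shifts was not tested.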
